A study of Mus musculus with 75 samples.

Results

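The 10 genes Fos, Fosb, Junb, Arc, Egr1, Egr2, Egr4, Npas4, Nr4a1 and Nr4a2 are immediate early genes of neuronal activity. They were chosen by name and followed by Ensembl identifier through 26 RNA sequencing libraries of mouse brain, in which 32601 gene identifiers were shared. The libraries came from C57BL/6 mice at postnatal day 21, out of 75 samples of the series, and were compared with wild type to ask what changes when an isoform of the DNA methyltransferase DNMT3A is lost or shortened. Cerebral cortex was read in 3 Dnmt3a1-/- libraries, which lack the long isoform, in 2 Dnmt3a2-/- libraries, which lack the short one, and in 3 Dnmt3a1_delta_N libraries, a delta_N form of the long isoform in a study of the N-terminal domain of DNMT3A. Against them stood 8 wild type cortex libraries in 3 numbering series, 3 with plain numbers for Dnmt3a1-/-, 2 with the letter r for Dnmt3a2-/- and 3 with the letter n for Dnmt3a1_delta_N. From hippocampus came 3 libraries of Dnmt3a1-/- and 3 of wild type, and cortical neuron nuclei, sorted with an antibody against NeuN, had 2 libraries labelled Dnmt3a1-/- and 2 wild type libraries. The labels name no Cre line and no conditional allele, do not say how each allele was made, and do not tie the libraries of a group to separate animals.

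Immediate early genes are switched on within minutes of a stimulus and need no newly made protein for it. In neurons, calcium that enters through glutamate receptors and voltage-gated channels activates kinases, which act on factors already bound to DNA, among them CREB, SRF with its ELK partners, and MEF2. Most of the 10 products are transcription factors: Fos, Fosb and Junb are subunits of the AP-1 dimer, Egr1, Egr2 and Egr4 are zinc finger proteins, Npas4 is a neuronal basic helix-loop-helix factor induced by calcium, and Nr4a1 and Nr4a2 are orphan nuclear receptors. Arc is not a transcription factor; it acts at synapses, where it promotes removal of AMPA receptors from the membrane. DNMT3A adds methyl groups to cytosines and, in postnatal neurons, methylates cytosines outside CpG as well as within it.

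CREB binds the sequence TGACG, the half-site of the cyclic AMP response element, which reads CGTCA on the opposite strand. RefSeq promoter windows of build GRCm38.p6, from 250 bases before to 50 bases after a start, were found for 8 of the 10 genes. In 8 of these 8 genes at least 1 window held the half-site on either strand, as did 20.8% of all 32851 windows and 23.0% of 27025 genes. Below are 4 windows, of the genes whose levels the results turn on, written 5′ to 3′ along the gene's own strand with each half-site in capitals. Fos (chr12:85473640-85473939, plus strand) and Npas4 (chr19:4989922-4990221, minus strand) hold 2 each. Nr4a1 (chr15:101266596-101266895, plus strand) and Nr4a2 (chr2:57123954-57124253, minus strand), which were called in opposite directions in Dnmt3a1-/- cortex with libraries paired, hold 4 each.
Fos: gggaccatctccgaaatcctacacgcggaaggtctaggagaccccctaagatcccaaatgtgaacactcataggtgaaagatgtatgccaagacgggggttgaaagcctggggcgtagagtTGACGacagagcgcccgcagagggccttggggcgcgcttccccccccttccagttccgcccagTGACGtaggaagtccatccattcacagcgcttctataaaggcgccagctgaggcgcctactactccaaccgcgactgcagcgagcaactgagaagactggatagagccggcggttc
Npas4: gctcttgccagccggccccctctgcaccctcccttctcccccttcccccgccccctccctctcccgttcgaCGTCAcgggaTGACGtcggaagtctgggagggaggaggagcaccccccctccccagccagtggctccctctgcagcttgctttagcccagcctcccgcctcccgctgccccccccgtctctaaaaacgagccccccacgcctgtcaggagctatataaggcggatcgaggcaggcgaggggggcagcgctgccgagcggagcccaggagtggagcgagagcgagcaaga
Nr4a1: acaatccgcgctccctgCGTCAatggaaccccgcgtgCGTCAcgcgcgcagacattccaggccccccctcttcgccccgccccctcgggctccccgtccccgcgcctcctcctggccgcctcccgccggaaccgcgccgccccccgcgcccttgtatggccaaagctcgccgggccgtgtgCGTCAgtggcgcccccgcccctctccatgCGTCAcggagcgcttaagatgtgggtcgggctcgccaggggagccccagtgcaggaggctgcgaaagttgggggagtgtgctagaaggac
Nr4a2: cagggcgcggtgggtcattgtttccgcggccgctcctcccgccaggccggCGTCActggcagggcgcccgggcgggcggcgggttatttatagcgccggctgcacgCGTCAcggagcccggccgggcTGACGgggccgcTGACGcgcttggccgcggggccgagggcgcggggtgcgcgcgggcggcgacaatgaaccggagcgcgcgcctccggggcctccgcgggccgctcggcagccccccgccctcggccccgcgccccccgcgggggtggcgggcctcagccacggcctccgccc

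A window with 4 or more half-sites was found in 0.231% of all windows, and 6 of the 8 genes had a window with 2 or more, against 5.01% of windows. The full palindrome TGACGTCA was in none of the 8 genes and in 1.8% of windows. An EGR site, GCGNGGGCG, was in Fosb, Nr4a1 and Nr4a2 and in 5.6% of windows, while the AP-1 site TGANTCA was in 0 of 8 and in 7.8% of windows. TATAAA was in Fos, Junb and Nr4a2 and in 13.6% of windows. The windows of these genes were rich in G and C, at 56.0% to 81.7% against a median of 52.7% over all windows, and all motifs were searched on both strands. Egr2 has 5 listed starts, and its windows held 0 to 2 half-sites depending on the start.

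Gene counts ran from 8.7 to 39.0 M per library (M, mega), and levels are given as CPM, the gene's counts per mega gene counts of its library, which do not correct for gene length. Dnmt3a itself stood at 73.2 to 80.8 CPM in Dnmt3a1-/- cortex against 146 to 165 CPM in wild type, and at 71.5 to 76.1 against 134 to 163 CPM in hippocampus. It stood at 132 to 144 CPM in Dnmt3a2-/- against 145 to 153 CPM, and at 135 to 139 CPM in Dnmt3a1_delta_N against 147 to 163 CPM. In nuclei labelled Dnmt3a1-/- it stood at 369 to 382 CPM against 399 to 405 CPM in wild type, without the drop seen in Dnmt3a1-/- cortex and hippocampus. These are counts over the whole gene, which do not separate isoforms, and nuclear RNA differs from tissue RNA, so they do not test the label. Markers of excitatory neurons summed to 5474 to 6467 CPM over the cortex libraries, and astrocyte markers to 563 to 765 CPM in nuclei against 11230 to 16920 CPM in cortex. The hippocampus files use a larger annotation than the cortex files.

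Libraries of 1 group differed widely in these genes. Arc differed 4.30-fold between the highest and the lowest Dnmt3a1-/- cortex library and 3.05-fold in the plain wild type series. Egr2 differed 4.94-fold and 3.62-fold in the same groups, and Fos 2.92-fold and 3.54-fold. Nr4a2 differed 1.49-fold and 1.31-fold, the smallest range of the 10 genes in Dnmt3a1-/- cortex.

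**Figure D1:**
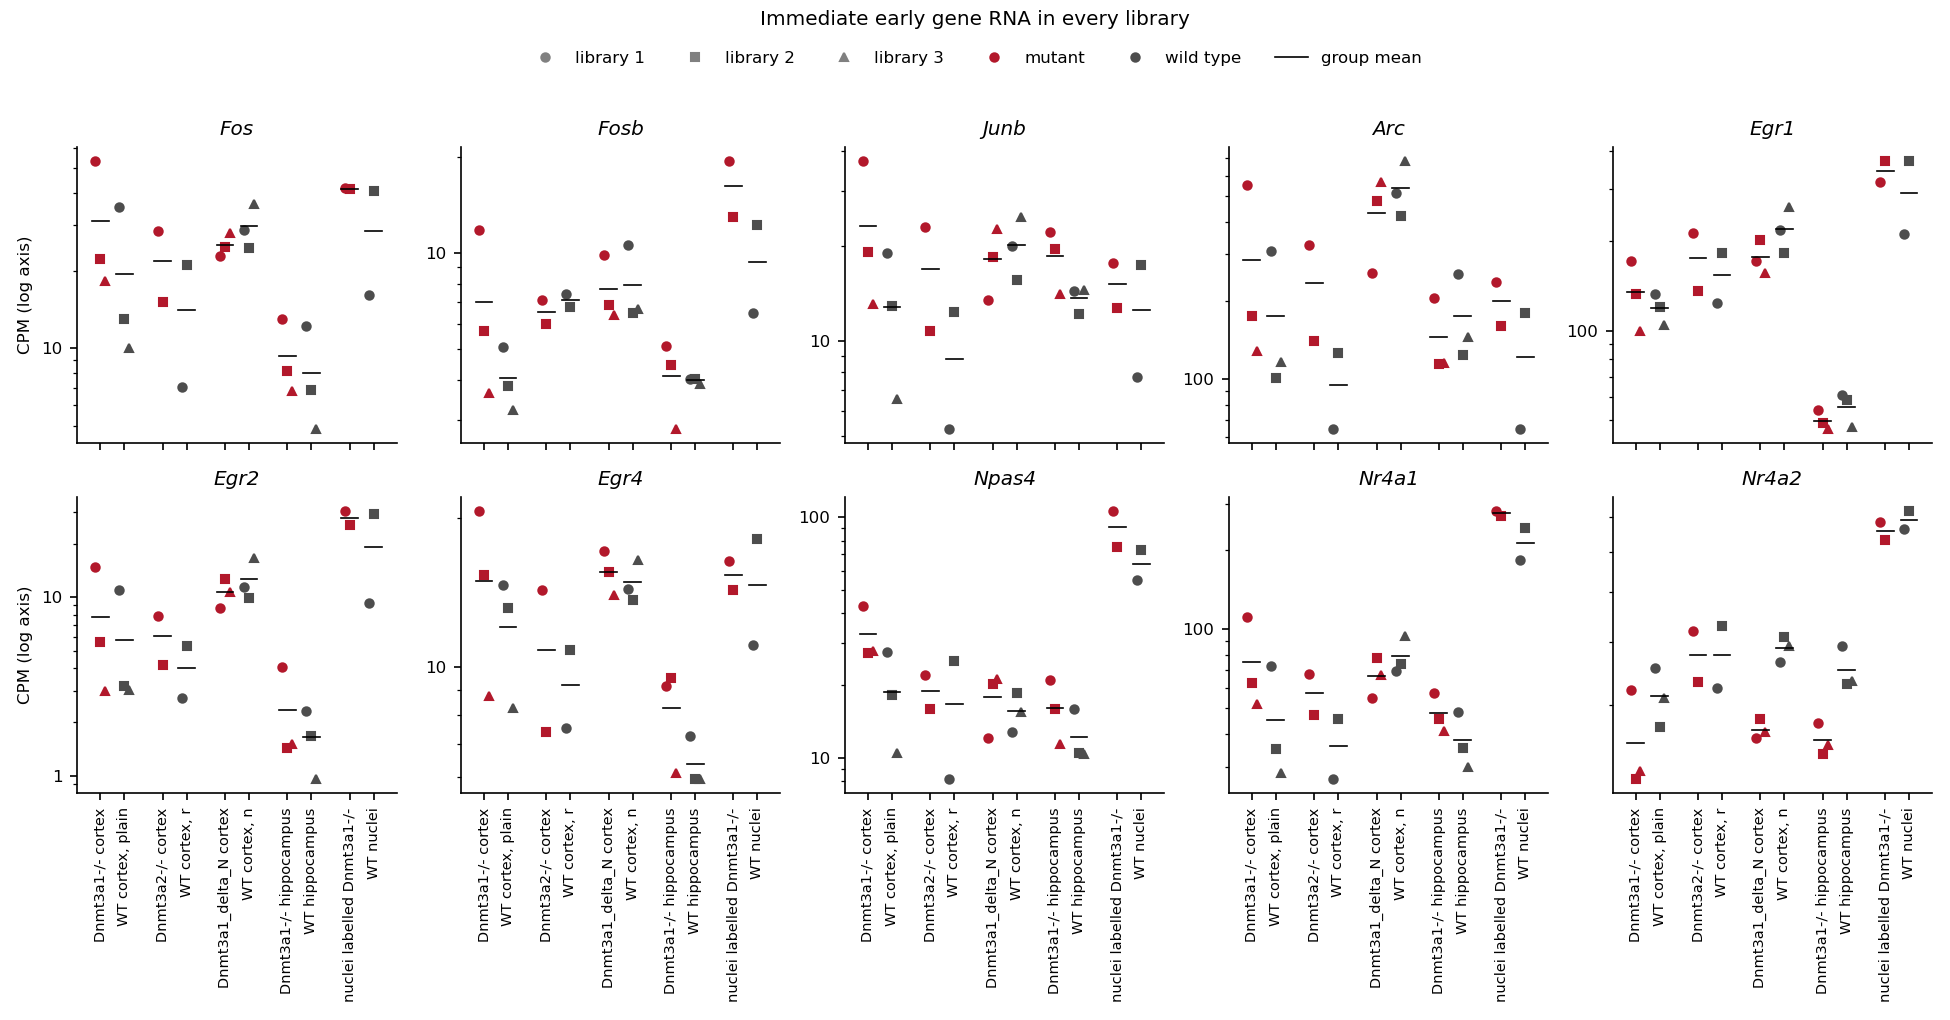
CPM of each gene (log axis) in each of the 26 libraries, with mutant groups in red left of their wild type series in grey, marker shape giving the library number and a line the group mean. Library 1 stood highest for all 10 genes in both Dnmt3a1-/- cortex and the plain wild type series, and the n series of wild type cortex lay above the plain series for most genes.

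The genes moved together from library to library. In Dnmt3a1-/- cortex library 1 was the highest for 10 of 10 genes and library 3 the lowest for 8, and the same counts held in the plain wild type series. Summed over the 10 genes, Dnmt3a1-/- cortex held 1049, 487 and 377 CPM in libraries 1, 2 and 3, against 661, 348 and 322 CPM in wild type. Dnmt3a2-/- cortex held 753 and 416 CPM, against 285 and 479 CPM in the r series, so that there the low-numbered library was the high one in the mutant and the low one in wild type. Dnmt3a1_delta_N cortex held 591, 884 and 920 CPM, against 936, 807 and 1194 CPM in the n series. The 3 wild type series of cortex thus spanned 285 to 1194 CPM with no mutation between them. Arc held 64.3 CPM of the lowest and 685 CPM of the highest of these sums. A sum of CPM weighs the genes with the highest levels most, in wild type cortex Arc and Egr1. Hippocampus held 418, 292 and 271 CPM in Dnmt3a1-/- and 457, 292 and 296 CPM in wild type, again with library 1 the highest in each group. Nuclei held 1137 and 1047 CPM in the libraries labelled Dnmt3a1-/- and 630 and 1056 CPM in wild type, where library 1 was the lower for 10 of 10 genes.

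Within groups, the deviation of each gene from its group mean followed the mean deviation of the other 9. Across the 16 cortex libraries Pearson r was 0.96 for Fos, 0.96 for Egr2, 0.95 for Nr4a1, 0.94 for Junb and 0.93 for Arc. Fosb followed least, at 0.55, and Nr4a2 stood at 0.81. In the 6 hippocampus libraries r was 0.98 for Npas4 and 0.94 for Fos and for Nr4a1, and 0.60 for Junb. These r values describe libraries that share a depth and a composition across genes, and in a group of 2 libraries the deviations mirror each other.

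Other genes tracked the same profile. Among 12894 genes ranked over the 16 cortex libraries, the 8 outside the 10 with the highest r were Dse (0.93), Dusp1 (0.90), Ccn1 (0.90), Sik1 (0.89), Faim (0.88), Cdk12 (0.86), Crlf3 (0.86) and Zfp184 (0.86). Dusp1, a phosphatase that switches off MAP kinases, and Sik1, a kinase induced by cyclic AMP, are rapid response genes themselves, as is Ccn1, a secreted matrix protein. Spearman rho over the same 16 libraries was 0.81 to 0.92 for these 8, and r was 0.75 to 0.87 without the 2 libraries farthest from the median profile. In the 6 hippocampus libraries r was 0.67 to 0.96, highest for Sik1.

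In Dnmt3a1-/- cortex 9 of the 10 genes had a positive log2 fold change and Nr4a2 a negative one. Set beside the wild type library of the same number, 7 genes were higher in all 3 pairs, Nr4a2 was lower in all 3, and Egr1 and Egr2 were mixed. The share of all genes with such a pattern was not counted, and genes that move together from library to library are not separate observations. In the unpaired test 0 of the 10 were called, in a comparison that called 17.9% of 15933 genes (edgeR quasi-likelihood test, Benjamini-Hochberg adjusted p under 0.05, n = 3 against 3), 0 had an unadjusted p under 0.05 and DESeq2 called 0. All 10 passed the filter on low counts, and for all 10 the ranges of the groups overlapped, where 36.1% of genes did not overlap. Same-numbered libraries deviated together, with correlations across genes of 0.237, 0.376 and 0.184 against -0.237 to -0.0111 for other pairs. Deviations were taken from group means, so positive same-number values push those of other pairs down by construction. The number was also fitted as a block. The blocked fit called 7 of the 10 higher and 1 lower, in a fit that called 31.0% of genes, and 15.1% higher. The pairing rests on these correlations and not on the labels, and by Xist reads library 2 was the female one in each of these groups. The median log2 fold change of the 10 was 0.64, against 0.01 over all genes tested. This median rested on single libraries: it was 0.02 without library 1 of Dnmt3a1-/-, 0.39 and 0.40 without library 2 or 3 of wild type, and 1.12 without library 1 of wild type. In tissue RNA, fewer cells of a type and less RNA per cell cannot be told apart.

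**Figure D2:**
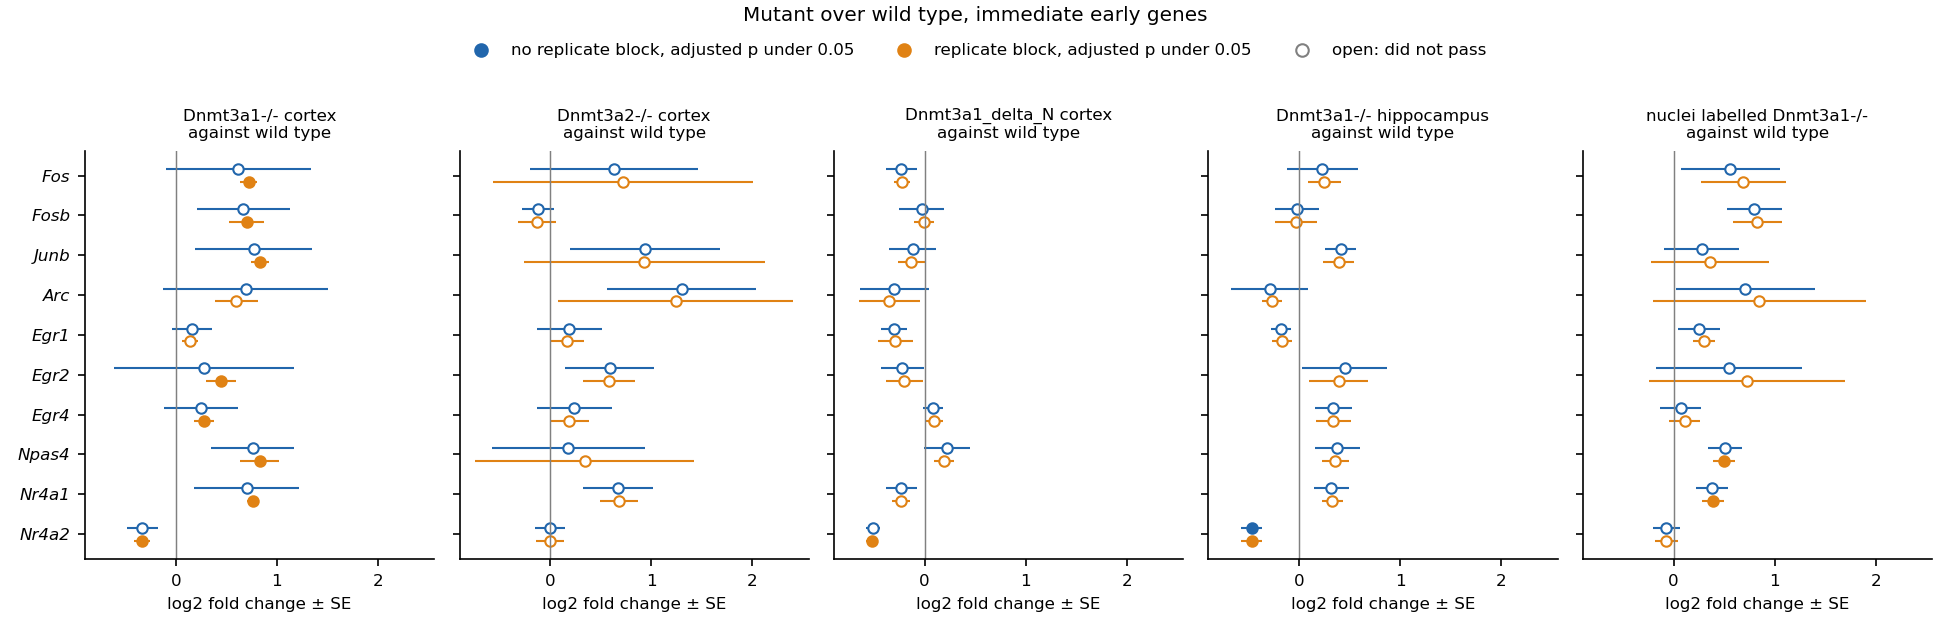
Log2 fold change of mutant over wild type with its standard error for the 10 genes in 5 comparisons, without the replicate block (blue) and with it (orange), filled where adjusted p was under 0.05. Standard errors in Dnmt3a1-/- cortex shrank with the block, where 8 of the 10 genes were filled, and Nr4a2 was the 1 gene filled without it, in hippocampus.

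The AP-1 subunits stood higher in each same-numbered pair. Fos had 53.6, 22.1 and 18.3 CPM in Dnmt3a1-/- cortex, against 35.4, 13.0 and 10.01 CPM in wild type, in the order of library number. Its mutant libraries were 1.51, 1.71 and 1.83 times their wild type counterparts, while library 1 of wild type lay above libraries 2 and 3 of the mutant. The log2 fold change was 0.62 ± 0.72 (SE, edgeR adjusted p = 0.63), and 0.72 ± 0.08 with the block (edgeR adjusted p = 8.8e-07). Junb, a partner of Fos, had 37.4, 19.2 and 13.1 CPM against 19.0, 13.0 and 6.58 CPM in wild type. Junb stood at 0.77 ± 0.58 (edgeR adjusted p = 0.44), and at 0.83 ± 0.09 with the block (edgeR adjusted p = 1.9e-06). Fosb, whose products include the long-lived delta-FosB, had 11.8, 5.68 and 3.64 CPM against 5.07, 3.84 and 3.21 CPM in wild type. The pair ratios of Fosb were 2.32, 1.48 and 1.14, and its blocked log2 fold change was 0.70 ± 0.17 (edgeR adjusted p = 0.0054).

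Npas4 had 42.6, 27.3 and 27.8 CPM in Dnmt3a1-/- cortex, against 27.5, 18.3 and 10.4 CPM in wild type. Its ranges met only at the edge, since the lowest mutant library lay just under the highest wild type one. The log2 fold change was 0.76 ± 0.41 (edgeR adjusted p = 0.29), and 0.83 ± 0.19 with the block (edgeR adjusted p = 0.041). Arc had 552, 175 and 128 CPM in Dnmt3a1-/- cortex, against 308, 101 and 116 CPM in wild type. Arc was higher in each of the 3 pairs, at 1.79, 1.73 and 1.10 times wild type, but did not pass with the block either (0.60 ± 0.21, edgeR adjusted p = 0.2).

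The EGR genes had the smallest log2 fold changes of the 10 without the block, at 0.16 to 0.28. Egr1, widely used as a marker of active neurons, had 172, 132 and 99.5 CPM in Dnmt3a1-/- cortex, against 133, 120 and 105 CPM in wild type, and did not pass in either fit (blocked 0.14 ± 0.08, edgeR adjusted p = 0.2). Egr2 had 14.8, 5.60 and 3.00 CPM against 11.0, 3.20 and 3.04 CPM in wild type, so that pair 3 was level while pairs 1 and 2 were apart. Egr4 had 20.7, 15.4 and 8.76 CPM against 14.6, 13.2 and 8.27 CPM in wild type. With the block Egr2 stood at 0.45 ± 0.15 (edgeR adjusted p = 0.026) and Egr4 at 0.28 ± 0.10 (edgeR adjusted p = 0.037).

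The 2 NR4A receptors differed in sign. Nr4a1, induced rapidly by stimuli in many tissues, had 112, 62.5 and 51.9 CPM in Dnmt3a1-/- cortex, against 72.6, 35.0 and 28.4 CPM in wild type. Its pair ratios of 1.54, 1.78 and 1.83 lay close together, and its log2 fold change was 0.70 ± 0.52 (edgeR adjusted p = 0.44) and 0.76 ± 0.06 with the block (edgeR adjusted p = 2.2e-08). Nr4a2 had 32.1, 21.5 and 22.3 CPM against 35.5, 27.2 and 31.0 CPM in wild type. Nr4a2 was lower in each pair, at 0.903, 0.790 and 0.721 times wild type, although library 1 of the mutant lay above libraries 2 and 3 of wild type. It stood at -0.33 ± 0.15 (edgeR adjusted p = 0.16), and at -0.33 ± 0.08 with the block (edgeR adjusted p = 0.0025).

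Leaving out a same-numbered pair changed how many genes the blocked fit called. Without pair 1 it called 4 of the 10 higher, where 13.0% of all genes were called higher. Without pair 2 it called 5 higher against 8.30% of genes, and without pair 3 it called 9 against 11.2%, with Nr4a2 lower in each. Fos, Junb, Npas4, Nr4a1 and Nr4a2 were called in all 3 of these fits. Against the 8 wild type libraries of all 3 cortex series, 0 of the 10 were called higher and Nr4a2 was called lower (-0.49, edgeR adjusted p = 0.029), where 9.53% of genes were called higher, 9.41% lower and 18.9% in all, while Arc, Egr1 and Egr2 turned to -0.02, -0.28 and -0.08. Without the block, leaving out library 1 of Dnmt3a1-/- turned Arc to -0.20, Egr1 to -0.04, Egr2 to -0.43 and Egr4 to -0.01, and brought Nr4a2 to -0.51 (edgeR adjusted p = 0.01).

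**Figure D3:**
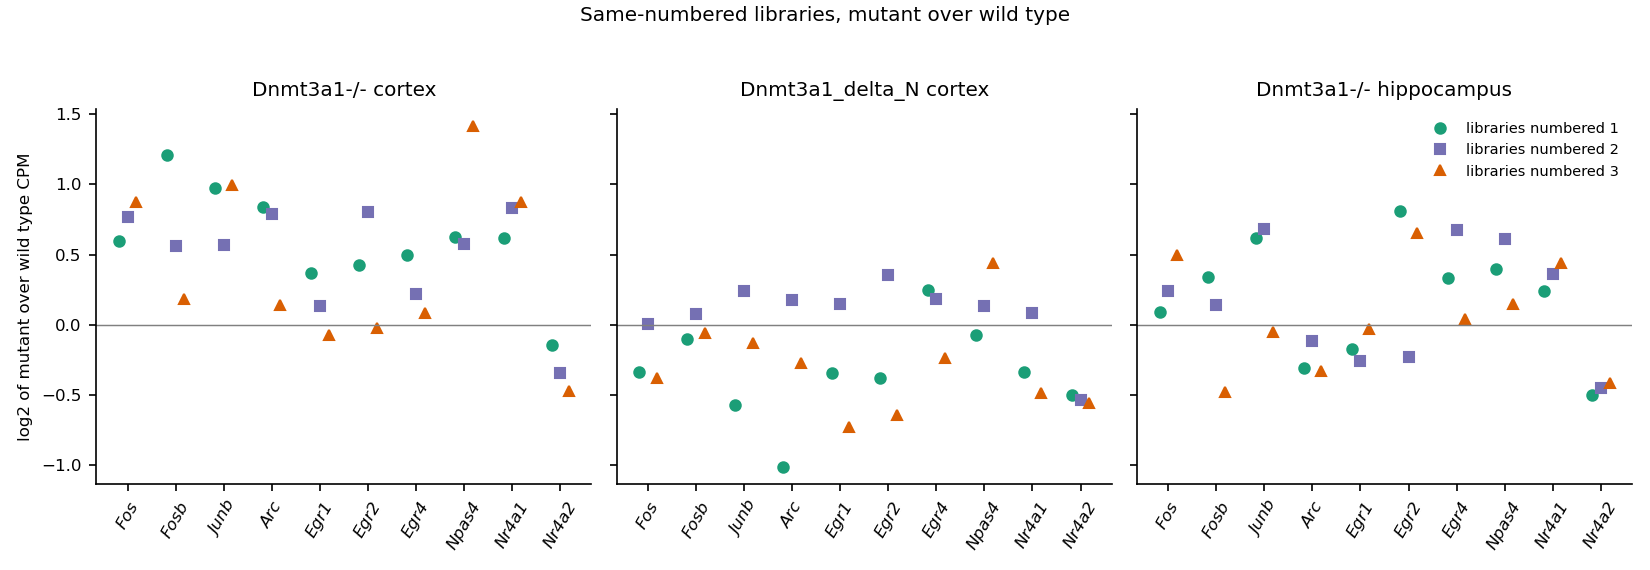
Log2 ratio of mutant to wild type CPM in each same-numbered pair of libraries, for Dnmt3a1-/- cortex, Dnmt3a1_delta_N cortex and Dnmt3a1-/- hippocampus. In Dnmt3a1-/- cortex 7 genes lay above 0 in all 3 pairs, and Nr4a2 lay below 0 in all 3 pairs of each of the 3 comparisons. The share of all genes with such patterns was not counted. The hippocampus libraries share only a number and were not taken as pairs.

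Markers of other cells differed between the same libraries. Of 12 marker lists, 3 did not overlap between Dnmt3a1-/- and wild type cortex. The 9 choroid plexus markers summed to 827 to 2015 CPM in Dnmt3a1-/- and 124 to 755 CPM in wild type. The 8 markers of mural cells and fibroblasts summed to 438 to 498 CPM and 565 to 807 CPM, and the 5 blood markers to 337 to 520 CPM and 521 to 822 CPM, in Dnmt3a1-/- and wild type. No marker of these lists was at 0 in any of these libraries. Reads outside annotated genes were 10.34% to 10.80% of uniquely placed reads in Dnmt3a1-/- and 9.38% to 10.16% in wild type. The part of these differences in the values above was not tested.

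Of 38 other rapid immediate early genes tested in Dnmt3a1-/- cortex, 5 were called higher and 2 lower, with a median log2 fold change of 0.21 against 0.01 over all genes tested, and the blocked fit called 18 higher and 3 lower. Here the unpaired test called 8.95% of all genes higher and 8.91% lower, and the blocked fit called 15.1% higher and 31.0% in all. Gadd45g, a growth arrest and DNA damage gene, rose by 0.84 ± 0.13 to 12.4 ± 0.546 CPM in Dnmt3a1-/- cortex, against 6.92 ± 1.30 CPM in wild type (SD, n = 3 each, edgeR adjusted p = 0.0011). Maff, a small MAF transcription factor, rose by 0.98 ± 0.17 (edgeR adjusted p = 0.0019), and Sgk1, a kinase induced by glucocorticoids, by 0.86 ± 0.13 (edgeR adjusted p = 0.0028). Fbxo33, a subunit of a ubiquitin ligase, fell by 0.40 ± 0.10 (edgeR adjusted p = 0.015).

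Delayed and effector genes are those that activity induces after the immediate early genes. Of 42 tested, 2 were called higher and 10 lower, where 8.95% of all genes were called higher and 8.91% lower. Their median was -0.20, against 0.01 over all genes tested. With the block 2 were called higher and 22 lower, where 15.1% of all genes were called higher and 31.0% in all. Bdnf, the neurotrophin induced by activity, stood at 15.4 ± 1.19 CPM in Dnmt3a1-/- cortex, against 25.3 ± 4.09 CPM in wild type, and fell by 0.70 ± 0.12 (n = 3 each, edgeR adjusted p = 0.002). Rgs4, a brake on G protein signalling, fell by 0.60 ± 0.07, Mfap3l by 0.59 ± 0.07 and Nefm, the medium neurofilament subunit, by 0.48 ± 0.07 (edgeR adjusted p = 0.00022, 0.00033 and 0.0011).

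Upstream of these genes, 5 of 52 signalling genes were called higher and 9 lower, with a median of -0.08 against 0.01 over all genes tested. The shares of all genes, for this list and those that follow, were 8.95% called higher and 8.91% lower. Mef2c, a transcription factor of activity response, fell by 0.49 ± 0.06 to 269 ± 13.2 CPM in Dnmt3a1-/- cortex, against 376 ± 2.60 CPM in wild type (n = 3 each, edgeR adjusted p = 0.00038). Grin2b, an NMDA receptor subunit, fell by 0.84 ± 0.14 and Hras by 0.33 ± 0.07, while Mapk3, the kinase ERK1, rose by 0.36 ± 0.07 (edgeR adjusted p = 0.0018, 0.0042 and 0.0035). Grin2b had only 10.3 CPM in Dnmt3a1-/- cortex and 18.7 CPM in wild type. In wild type hippocampus, counted with the larger annotation, it had 427 CPM, and tissue and annotation cannot be told apart there. Of 20 feedback phosphatases and inhibitors of MAP kinase signalling 0 were called higher and 5 lower. Among these were Dusp3, at -0.35 ± 0.06, and Ptpn5, the striatal-enriched phosphatase STEP, at -0.46 ± 0.10 (edgeR adjusted p = 0.0028 and 0.0069). Of 20 relatives and cofactors 3 were called higher and 2 lower. The retinoid receptors, with which NR4A1 and NR4A2 can pair, divided, with Rxra at 0.45 ± 0.09 and Rxrg at -0.86 ± 0.22 (edgeR adjusted p = 0.0046 and 0.03).

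In Dnmt3a2-/- cortex 0 of the 10 genes were called, in a comparison of 2 libraries against 2 that called 0.00628% of 15929 genes and 457 at an unadjusted p under 0.05 (of the 10, 0 had an unadjusted p under 0.05 and DESeq2 called 0). Arc had 327 and 140 CPM in Dnmt3a2-/- cortex, against 64.3 and 126 CPM in the r series, and Nr4a1 had 67.5 and 47.3 CPM against 26.8 and 45.4 CPM. These 2 were the genes without overlap, both higher in the mutant, where 14.8% of all genes lay higher without overlap. Arc stood at 1.30 ± 0.74 and Nr4a1 at 0.67 ± 0.35 (edgeR adjusted p = 1 for each). Fos had 28.5 and 15.1 CPM against 7.06 and 21.1 CPM in wild type, and Npas4 had 22.0 and 15.9 CPM against 8.12 and 25.3 CPM. Nr4a2 had 42.0 and 33.4 CPM against 32.5 and 42.9 CPM, with no difference in the fit (0.00 ± 0.15). Library 1 of the r series was the lower for 9 of the 10 genes. Without library 2 of that series 4 genes were called higher (Fos, Junb, Npas4 and Nr4a1), a fit in which the lone control library is assumed to vary like the mutant ones and 0.155% of all genes were called higher. With all 8 wild type libraries Arc turned to -0.33 and Nr4a1 stood at 0.03. Of the 12 marker lists 3 did not overlap. Oligodendrocyte markers summed to 15080 to 17950 CPM in Dnmt3a2-/- and 14620 to 14690 CPM in wild type, striatal markers to 501 to 635 CPM and 430 to 488 CPM, and markers of hippocampal subfields to 498 to 520 CPM and 521 to 530 CPM, and their part in these values was not tested. Choroid plexus markers, which overlapped, summed to 18.0 and 1613 CPM in Dnmt3a2-/- and 277 and 25.1 CPM in wild type.

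In Dnmt3a1_delta_N cortex Nr4a2 was lower in each library and the other 9 genes overlapped with wild type. Nr4a2 had 25.8, 28.2 and 26.7 CPM, against 36.5, 40.8 and 39.2 CPM in the n series. The highest mutant library thus lay below the lowest wild type one, and 7.07% of all genes lay lower without overlap. The log2 fold change was -0.51 ± 0.07, with an edgeR p of 2.7e-05 that did not pass after adjustment over 15881 genes (adjusted p = 0.21). This edgeR comparison called 0 genes, with 1267 at an unadjusted p under 0.05. DESeq2 called a number equal to 0.277% of the 15881 genes, Nr4a2 among those called. Same-numbered libraries deviated together here too (0.373, 0.240 and 0.419 against -0.321 to -0.0602 for other pairs). The values of other pairs are again pushed down by construction. By Xist reads library 3 was the female one in each of these groups, so for that number shared sex and pairing cannot be told apart. With the block Nr4a2 fell by 0.52 ± 0.06 (edgeR adjusted p = 0.0051), in a fit that called 0.749% of genes, and 0.542% lower. The pair ratios were 0.708, 0.690 and 0.680. Without pair 3 the blocked value stayed at -0.52 with an adjusted p of 0.051, and with all 8 wild type libraries it was -0.41 (edgeR adjusted p = 0.17).

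None of the other 9 genes in Dnmt3a1_delta_N cortex passed, and 7 of them had negative and 2 had positive log2 fold changes. The positive values were those of Npas4, at 0.22 ± 0.23, and Egr4, at 0.08. Npas4 had 12.1, 20.3 and 21.1 CPM in Dnmt3a1_delta_N, against 12.7, 18.5 and 15.5 CPM in the n series. Arc had 255, 478 and 566 CPM against 515, 422 and 685 CPM in the n series, and Fos had 22.8, 24.8 and 28.0 CPM against 28.8, 24.6 and 36.4 CPM. Egr1, at -0.30 ± 0.13, came nearest to a call after Nr4a2 (edgeR adjusted p = 0.62). The median of the 10 was -0.22, against 0.00 over all genes, and ran from -0.32 to -0.07 when 1 library was left out (-0.10 without library 1 of Dnmt3a1_delta_N and -0.07 without library 3 of wild type). Without pair 2 the blocked fit called 5 of the 10 lower (Fos, Egr1, Egr2, Nr4a1 and Nr4a2), where 1.77% of all genes were called lower. Without pair 1 it called 1 lower against 1.13% of genes, and without pair 3 it called 0 against 0.0371%. Oligodendrocyte markers, 8 of 8 matched, summed to 18290 to 19600 CPM in Dnmt3a1_delta_N and 16750 to 17680 CPM in wild type, with none at 0, and were the 1 list of 12 without overlap. Choroid plexus markers, which overlapped, summed to 950, 704 and 84.3 CPM in Dnmt3a1_delta_N and 82.4, 409 and 33.6 CPM in wild type. The part of these markers in the Nr4a2 difference was not tested.

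In hippocampus Nr4a2 was the 1 gene of the 10 that was called, and it was called lower. Nr4a2 had 27.7, 24.1 and 25.1 CPM in Dnmt3a1-/- hippocampus, against 39.2, 33.0 and 33.4 CPM in wild type. Its level fell by 0.47 ± 0.10 (n = 3 against 3, edgeR adjusted p = 0.028), in a comparison that called 2.52% of 15727 genes, and 0.827% lower. No library of Dnmt3a1-/- reached the wild type range, as in 8.34% of genes that lay lower without overlap. Leaving out 1 library at a time kept the value at -0.53 to -0.40, but the adjusted p passed 0.05 without library 2 or 3 of Dnmt3a1-/- (0.12 and 0.069) and without library 2 or 3 of wild type (0.065 each). Nr4a1 had 57.4, 45.5 and 40.8 CPM against 48.5, 35.4 and 30.0 CPM in wild type, higher at each library number, although these libraries share only a number, and overlapping between the groups (0.32 ± 0.17, edgeR adjusted p = 0.35).

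The other hippocampal values divided by gene. Junb had 22.2, 19.6 and 14.1 CPM in Dnmt3a1-/- hippocampus and 14.4, 12.2 and 14.5 CPM in wild type (0.41 ± 0.15, edgeR adjusted p = 0.17). Npas4 had 20.9, 16 and 11.4 CPM and 15.9, 10.5 and 10.3 CPM, and Egr4 had 9.15, 9.50 and 6.11 CPM and 7.26, 5.94 and 5.94 CPM. Arc and Egr1 went the other way. Arc had 204, 115 and 115 CPM in Dnmt3a1-/- and 253, 124 and 145 CPM in wild type, and Egr1 had 54.1, 48.8 and 46.6 CPM and 60.8, 58.3 and 47.4 CPM. Neither passed (edgeR adjusted p = 0.75 and 0.38), and the median of the 10 was 0.27 against 0.01 over all genes. Leaving out 1 library turned the sign of this median, which was -0.07 without library 1 of Dnmt3a1-/-, 0.07 without library 3 of wild type and at most 0.43.

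Marker lists differed in hippocampus as well. The 8 markers of hippocampal subfields summed to 1007 to 1097 CPM in Dnmt3a1-/- and 1147 to 1290 CPM in wild type. Mural and fibroblast markers summed to 365 to 435 CPM and 461 to 531 CPM, and striatal markers to 75.3 to 86.2 CPM and 54.5 to 65.4 CPM, with no marker at 0. Choroid plexus markers varied most between libraries, at 553, 1851 and 62.1 CPM in libraries 1, 2 and 3 of Dnmt3a1-/- and 79.3, 110 and 92.3 CPM in wild type, and overlapped. Reads outside annotated genes were 9.69% to 10.30% in Dnmt3a1-/- and 8.41% to 8.74% in wild type. Their part in the Nr4a2 difference was not tested. Nr4a2 is known as a marker of the claustrum and of layer 6b of cortex, and 9 markers of these regions, chosen after values were seen, were summed as well. They gave 190 to 221 CPM in Dnmt3a1-/- hippocampus against 166 to 187 CPM in wild type, 253 to 280 CPM in Dnmt3a1-/- cortex against 223 to 244 CPM, and 215 to 250 CPM in Dnmt3a1_delta_N cortex against 229 to 240 CPM. The sums lay above wild type without overlap in the first 2 of these comparisons and overlapped in the third. They also lay above wild type in Dnmt3a2-/- cortex, at 226 to 227 CPM against 202 to 214 CPM, with no Nr4a2 difference in the fit. In nuclei labelled Dnmt3a1-/- they lay below wild type, at 220 to 243 CPM against 248 to 259 CPM. The part of these sums in the Nr4a2 difference was not tested.

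Among 38 other rapid immediate early genes in hippocampus 3 were called higher and 0 lower. Of all genes tested there, 2.52% were called in either direction and 0.827% lower. Gadd45g rose by 0.77 ± 0.12 and Sgk1 by 0.83 ± 0.13, as in cortex, and Arl4d, a small GTPase of the ARF family, rose by 0.77 ± 0.17 (edgeR adjusted p = 0.0073, 0.0083 and 0.03). Of 52 upstream genes 0 were called higher and 1 lower, Adcy8, a calcium-stimulated adenylyl cyclase, which fell by 0.62 ± 0.11 (edgeR adjusted p = 0.014). Of 42 delayed genes, 20 feedback genes and 20 relatives 0 were called. In Dnmt3a2-/-, Dnmt3a1_delta_N and the nuclei labelled Dnmt3a1-/- 0 genes of these 5 lists were called without the block. These comparisons called 0.00628%, 0% and 0.246% of all genes, in the same order.

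In nuclei labelled Dnmt3a1-/- 0 of the 10 genes were called, in a comparison of 2 libraries against 2 that called 0.246% of 15860 genes (0.214% higher, 0.0315% lower), with 1425 genes at an unadjusted p under 0.05, among them Fosb, Npas4 and Nr4a1 (DESeq2 called 0 of the 10). Fos, Fosb, Npas4 and Nr4a1 lay higher without overlap, where 18.9% of all genes did so. Npas4 had 107 and 75.0 CPM in nuclei labelled Dnmt3a1-/-, against 55.0 and 73.2 CPM in wild type nuclei, and Nr4a1 had 283 and 270 CPM against 183 and 243 CPM. Fosb had 19.4 and 12.9 CPM against 6.48 and 12.3 CPM, and Fos had 41.8 and 41.4 CPM against 16.1 and 40.7 CPM. In each of these genes library 2 of wild type lay under library 2 of the labelled nuclei, and library 1 of wild type lay lower still. Without library 1 of wild type Egr1, Egr2, Egr4 and Junb turned to -0.09, -0.05, -0.23 and -0.18. Nr4a2 had 68.6 and 63.2 CPM against 66.3 and 72.2 CPM (-0.07 ± 0.13, edgeR adjusted p = 0.92). Of the 12 marker lists 4 did not overlap in nuclei. Blood markers summed to 5.81 to 7.71 CPM in the labelled nuclei and 15.0 to 15.9 CPM in wild type, and choroid plexus markers to 12.3 to 15.4 CPM and 15.8 to 21.1 CPM, with Otx2 at 0 in labelled nuclei. Microglia markers summed to 32.0 to 36.8 CPM and 30.9 to 31.0 CPM, and those of oligodendrocyte precursors to 8.66 to 12.1 CPM and 7.74 to 8.01 CPM. Their part in the values above was not tested.

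The share of Nr4a1 to Nr4a2 within a library, a measure chosen after values were seen, sets the 2 receptors against each other with the depth of the library cancelled. It is a ratio of reads, not of molecules. It was 3.48, 2.91 and 2.32 in Dnmt3a1-/- cortex, against 2.04, 1.29 and 0.915 in wild type. In Dnmt3a1-/- hippocampus it was 2.07, 1.88 and 1.63, against 1.24, 1.07 and 0.898. Dnmt3a2-/- cortex gave 1.61 and 1.42, against 0.826 and 1.06, and nuclei labelled Dnmt3a1-/- gave 4.12 and 4.27, against 2.75 and 3.37 in wild type nuclei. In these 4 comparisons each mutant library lay above each wild type library. The same held for the ratio to Nr4a2 of 19.7% of all tested genes in Dnmt3a1-/- cortex, 72.7% in Dnmt3a1-/- hippocampus, 5.54% in Dnmt3a2-/- cortex and 26.8% in nuclei. In hippocampus Nr4a2 itself was lower in each mutant library. In Dnmt3a1_delta_N cortex the ratio was 2.12, 2.77 and 2.52, against 1.89, 1.80 and 2.40, and the groups overlapped.

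**Figure D4:**
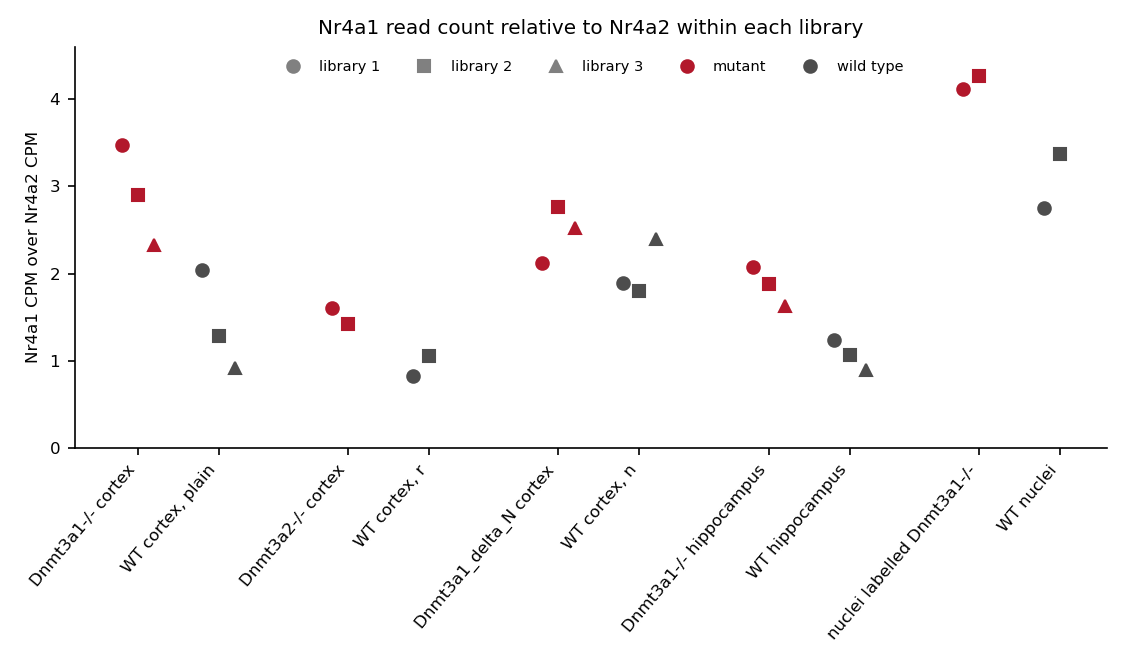
Ratio of Nr4a1 to Nr4a2 CPM within each library (linear axis from 0), mutant groups in red left of their wild type series in grey, marker shape giving the library number. Mutant and wild type do not overlap in 4 of the 5 comparisons and overlap in Dnmt3a1_delta_N cortex.

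Set against Nr4a2 in this way, 5 of the other 9 genes lay higher without overlap in Dnmt3a1-/- cortex, 6 in Dnmt3a1-/- hippocampus, 4 in Dnmt3a2-/- cortex, 2 in Dnmt3a1_delta_N cortex and 5 in nuclei, and none lay lower. The 6 of 9 in hippocampus were no larger a share than the 72.7% of all genes, and the 2 of 9 in Dnmt3a1_delta_N cortex lay under the 79.4% of all genes that did so there. Npas4 over Nr4a2 ran from 1.24 to 1.33 in Dnmt3a1-/- cortex and from 0.336 to 0.775 in wild type. In hippocampus it ran from 0.454 to 0.755 in Dnmt3a1-/- and from 0.308 to 0.406 in wild type, and in Dnmt3a1_delta_N cortex from 0.468 to 0.793 against 0.349 to 0.453.

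Differences between the effects themselves were tested as interaction contrasts, and without the block 0 of the 10 genes were called in any of the 4 by edgeR or DESeq2, and 0 had an unadjusted p under 0.05. Hippocampal minus cortical effect of Dnmt3a1-/- ran from -0.98 to 0.13, with SE of 0.19 to 1.20 and a lowest edgeR adjusted p of 0.98. The edgeR contrast called 0 of 15433 genes, with 777 at an unadjusted p under 0.05, and DESeq2 called a number equal to 0.013% of the 15433. For Nr4a2 this difference was -0.14 ± 0.19. The effect of Dnmt3a1_delta_N minus that of Dnmt3a1-/- in cortex was negative for all 10, from -0.98 to -0.16, with a lowest adjusted p of 0.54, and was -0.18 ± 0.17 for Nr4a2. The effect in nuclei labelled Dnmt3a1-/- minus that of Dnmt3a1-/- in cortex ran from -0.49 to 0.29, and the effect of Dnmt3a2-/- minus that of Dnmt3a1-/- from -0.80 to 0.62 (lowest edgeR adjusted p = 0.59 and 0.63). These contrasts called 0.107%, 0.313% and 0.212% of genes for Dnmt3a1_delta_N, nuclei and Dnmt3a2-/-, and SE reached 1.24.

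For Dnmt3a1_delta_N minus Dnmt3a1-/-, where same-numbered libraries deviated together in both comparisons, the difference was also fitted with the number as a block within each mutant and its own wild type series, a fit chosen after values were seen. It called 3 of the 10 genes lower, Fos, Junb and Nr4a1, and 0 higher, where 3.01% of all genes were called in either direction. The Fos effect in Dnmt3a1_delta_N was lower than that in Dnmt3a1-/- by a log2 difference of -0.94 ± 0.11 (edgeR adjusted p = 0.00037), the Nr4a1 effect by -0.99 ± 0.13 (edgeR adjusted p = 0.005) and the Junb effect by -0.95 ± 0.20 (edgeR adjusted p = 0.036). Fos and Nr4a1 were called in each of the 6 fits that left out 1 pair. Junb was not called without pair 3 of Dnmt3a1_delta_N or pair 1 or 3 of Dnmt3a1-/- (edgeR adjusted p = 0.1, 0.11 and 0.13). Without pair 2 of Dnmt3a1_delta_N 5 were called, Egr1 and Egr2 with them, and without pair 3 of Dnmt3a1-/- Fosb was called in place of Junb. Nr4a2, which fell with the block in both mutants, stood at -0.19 ± 0.09 in this difference (edgeR adjusted p = 0.31). Each effect is relative to its own wild type series, and the plain and n series differed in level. Against all 8 wild type cortex libraries Fos stood at 0.49 in Dnmt3a1-/- and 0.19 in Dnmt3a1_delta_N. Junb stood at 0.66 and 0.32 there, and Nr4a1 at 0.45 and 0.26, in the same order.

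Levels across wild type tissues were compared with all 8 cortex libraries. In hippocampus 4 of the 10 were called lower than in cortex, in a comparison that called 42.0% of 15861 genes, and 20.5% lower. Egr1 had 60.8, 58.3 and 47.4 CPM in hippocampus and 105 to 260 CPM over the 8 cortex libraries (median 157 CPM), and fell by 1.60 ± 0.27 (edgeR adjusted p = 0.00041). Egr2 fell by 2.35 ± 0.72, Fos by 1.55 ± 0.56 and Egr4 by 1.00 ± 0.23 (edgeR adjusted p = 0.022, 0.046 and 0.003). Egr1 and Egr4 were called in 17 of 17 alternatives, Egr2 in 14 and Fos in 7. With the plain series alone 2 of the 10 were called lower, where 23.2% of all genes were, and with the n series alone 8, where 23.9% were. Nr4a2 did not differ in the fit (-0.06 ± 0.12, edgeR adjusted p = 0.74). Tissue and annotation differ together here, as may any batch that the labels do not name, and these cannot be told apart.

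In wild type nuclei 3 of the 10 were called higher than in cortex, in a comparison that called 79.7% of 16625 genes, and 39.9% higher. Npas4 had 55.0 and 73.2 CPM in nuclei and 8.12 to 27.5 CPM over the 8 cortex libraries (median 16.9 CPM), and rose by 1.66 ± 0.34 (edgeR adjusted p = 0.00098). Nr4a1 rose by 1.69 ± 0.41 and Nr4a2 by 0.71 ± 0.13 (edgeR adjusted p = 0.0033 and 0.00017), and Nr4a1 and Nr4a2 were called in 16 of 16 alternatives and Npas4 in 15, the exception being the r series alone. Sorting and the change from tissue to nuclear RNA differ together, as may steps of preparation that the labels do not name, and these cannot be told apart.

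In the order of group means nuclei stood first for Fos, Fosb, Egr1, Egr2, Npas4, Nr4a1 and Nr4a2. Few neighbours in these orders lay apart, that is, without overlap of their libraries: 3 of 9 steps for Npas4, 2 for Fosb and Nr4a1, 1 for Egr1 and Nr4a2, and 0 for the other 5. For Egr1 the step lay between wild type hippocampus (55.5 ± 7.13 CPM) and the plain wild type cortex series (119.3 ± 14.0 CPM, SD, n = 3 each). For Nr4a2 it lay between the nuclei, at 65.9 ± 3.82 CPM in those labelled Dnmt3a1-/- (n = 2), and the cortex libraries of the n series, at 38.8 ± 2.18 CPM (n = 3). The lowest 3 Nr4a2 means were those of Dnmt3a1_delta_N cortex (26.9 ± 1.19 CPM), Dnmt3a1-/- hippocampus (25.6 ± 1.85 CPM) and Dnmt3a1-/- cortex (25.3 ± 5.90 CPM), which did not lie apart from their neighbours.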

How the data were processed

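RNA of cortex, hippocampus and NeuN-sorted cortical nuclei was sequenced after a stranded mRNA preparation, per the labels' protocols. Reads were aligned with STAR 2.5.4a to mm9 and counted with HTSeq 0.11.0, per the submitters' processing notes; the annotation release and strand setting are not given in the sources used here. The deposited values are whole-number counts per Ensembl gene, 1 file per library, and 21.14% to 36.97% of reads stood in lines that name no gene and were left out. Cortex and nuclei files list 37310 identifiers, of which 32620 matched a symbol, and hippocampus files 55487, of which 55394 matched.

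Counts were filtered with filterByExpr, scaled with TMM and tested with robust quasi-likelihood fits in edgeR 4.0.16 (R 4.3.3), over all genes, with Benjamini-Hochberg adjustment and a threshold of 0.05; SE is the log2 fold change divided by the square root of F. The test was checked on simulated counts. Alternatives were DESeq2 1.42.0, RLE size factors, no filter, each library left out, the library number as a block (also within each series for 1 difference of effects), and all 8 wild type cortex libraries. Numbers were taken as pairs where all of 3 same-number correlations passed 0.1, in cortex of Dnmt3a1-/- and Dnmt3a1_delta_N. No label ties libraries to separate animals; a p-value then reflects spread between libraries, which may be technical.

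Genes and lists were chosen with earlier results of these data known. Up to 4 called genes per list were eligible to be named, by smallest p, and the 8 genes most like the 10 were ranked by Pearson r among genes whose log2 CPM averaged 1 or more. The DNA methylation and chromatin samples were not used here.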

Additional observations from a re-analysis of the deposited data

Results flagged for a closer look

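In the fit with libraries paired within each series, the cortex effects of Dnmt3a1_delta_N and Dnmt3a1-/- differed for 3 of the 10 genes. That fit was chosen after values were seen, and it called 3.01% of all genes in either direction. The log2 difference, Dnmt3a1_delta_N minus Dnmt3a1-/-, was -0.94 for Fos, -0.95 for Junb and -0.99 for Nr4a1. Without the pairing none of the 3 passed, and Junb did not pass in 3 of the 6 paired fits that left out 1 pair. Each effect was taken against its own wild type series, and these series differed. Fos averaged 19.5 CPM in the plain series and 29.95 CPM in the n series, against 31.3 CPM in Dnmt3a1-/- and 25.2 CPM in Dnmt3a1_delta_N. The part of the wild type series in these differences was not tested.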

How the results depend on the processing

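In all, 1421 values were recomputed under alternatives, of which 69 turned sign, 70 gained a call and 18 lost one, and the cause was not tested unless a library is named. Numbers of called genes are given as a percent of the genes tested in the main comparison. RLE size factors moved none of these by over 1.5 times. DESeq2 called 3.78% in Dnmt3a1-/- hippocampus, 0.441% in labelled nuclei, 0.277% in Dnmt3a1_delta_N (1 of the 10 lower) and 0.0440% in Dnmt3a2-/-, against 2.52%, 0.246%, 0% and 0.00628% by edgeR. For the differences of effects it called 0.0130% (hippocampus minus cortex), 1.76% (nuclei minus cortex), 0.635% (Dnmt3a1_delta_N minus Dnmt3a1-/-) and 1.15% (Dnmt3a2-/- minus Dnmt3a1-/-), against 0%, 0.313%, 0.107% and 0.212%. With no filter on low counts these 4 contrasts called 0.0194%, 3.64%, 0.333% and 3.66%, and the last called 1 of the 10 higher and 2 lower. With no filter hippocampus called 6.61%, nuclei 1.53% (2 of the 10 higher), Dnmt3a1_delta_N 0.107% (1 lower), Dnmt3a2-/- 0.402%, and Dnmt3a1-/- cortex 1 of the 10 lower.

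The replicate block raised the share to 31.0% in Dnmt3a1-/- cortex (7 of the 10 higher, 1 lower), 0.749% in Dnmt3a1_delta_N (1 lower), 0.345% in Dnmt3a2-/- and 4.67% in nuclei (2 higher), and lowered it to 1.56% in hippocampus. In the last 3 the libraries share only a number: same-number correlations were -0.0556, 0.272 and 0.0261 in hippocampus, 0.111 in Dnmt3a2-/- and 0.297 in nuclei. By Xist reads library 2 was the female one in each group of these 3 comparisons. The blocked fits without 1 pair were chosen after seeing the data. In Dnmt3a1-/- cortex, without pair 1, 2 or 3, they called 4, 5 or 9 of the 10 higher and 1 lower each, and 27.8% of genes without pair 1. In Dnmt3a1_delta_N they called 1.69%, 3.10% or 0.0504%, and 1, 5 or 0 of the 10 lower; Egr4 turned to -0.01, Fosb to 0.03 and Junb to 0.07 without pair 1, and Egr2 to 0.01 without pair 3. A block within each series, also chosen after seeing the data, raised Dnmt3a1_delta_N minus Dnmt3a1-/- to 3.01% called with 3 of the 10 lower, and without pair 1, 2 or 3 of Dnmt3a1_delta_N it called 2.95%, 1.42% or 3.95% (3, 5 or 2 lower), and without pair 1, 2 or 3 of Dnmt3a1-/- 1.89%, 0.792% or 1.02% (2, 3 or 3 lower). Comparisons across tissues and the other differences of effects had no block.

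Against the 8 wild type libraries of all cortex series, Dnmt3a1-/- gave Arc -0.02, Egr1 -0.28, Egr2 -0.08 and 1 of the 10 lower. Dnmt3a1_delta_N gave Arc 0.58, Egr1 0.09, Egr2 0.43, Fos 0.19, Fosb 0.29, Junb 0.32 and Nr4a1 0.26. Dnmt3a2-/- gave 0.0126% called, Arc -0.33, Egr2 -0.40, Egr4 -0.20, Fos -0.03, Fosb 0.04 and Nr4a2 0.06. For wild type hippocampus, the r series alone gave Arc 0.81, Junb 0.57 and Nr4a1 0.00, and the plain series alone Junb 0.01, Nr4a2 0.10 and 2 of the 10 lower; the n series alone gave 8 lower. For wild type nuclei, the r series alone gave Arc 0.10, Egr4 0.41 and Junb 0.25, the n series alone Fos -0.36, Fosb -0.05 and 1 lower, and the plain series alone 5 higher.

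Leaving out 1 library at a time, where a lone remaining library is assumed to vary like the other group, gave these ranges. Dnmt3a1-/- cortex ranged over 10.04% to 17.1% called, Arc -0.20 to 1.35, Egr1 -0.04 to 0.32, Egr2 -0.43 to 1.15, Egr4 -0.01 to 0.52, and 0 to 1 of the 10 lower. Dnmt3a2-/- ranged over 0.157% to 0.873%, Egr1 -0.19 to 0.48, Egr4 -0.34 to 0.64, Fosb -0.27 to 0.01, Npas4 -0.40 to 1.20, Nr4a2 -0.20 to 0.19, and 0 to 4 higher. Dnmt3a1_delta_N ranged over 0% to 0.0126%, Egr2 -0.36 to 0.03, Fosb -0.24 to 0.23 and Junb -0.33 to 0.06. Hippocampus ranged over 0.547% to 4.98%, Arc -0.59 to 0.07, Egr2 -0.10 to 0.70, Fos -0.05 to 0.60, Fosb -0.17 to 0.21, and 0 to 1 higher and 0 to 1 lower. Nuclei ranged over 0.0252% to 2.29%, Egr1 -0.09 to 0.70, Egr2 -0.05 to 1.59, Egr4 -0.23 to 0.46, Junb -0.18 to 0.97, and 0 to 4 higher. Called genes ranged from 0.0963% to 0.590% for nuclei minus cortex, 0.0252% to 1.04% for Dnmt3a1_delta_N minus Dnmt3a1-/- and 0% to 0.542% for Dnmt3a2-/- minus Dnmt3a1-/-. Wild type hippocampus ranged over 2 to 5 of the 10 lower and Junb -0.25 to 0.03, and wild type nuclei over Egr2 0.00 to 1.61, Egr4 -0.39 to 0.28, Fos -0.68 to 0.62 and Fosb -0.18 to 0.70.

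Groups held 2 or 3 libraries, with several-fold ranges within groups for Arc, Fos and Egr2. Where the strand setting of the counting is not given, reads of antisense or overlapping genes cannot be told apart.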
